A study of Homo sapiens with 4 samples.

Results

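TGM2 encodes tissue transglutaminase, and its transcript was followed on every array of MIA PaCa-2 pancreatic carcinoma cells that overexpress ING3. All probe sets that the array's annotation assigns to TGM2 alone were taken, which gave 4 of the 54613 probe sets that are not controls, for 1 of 19775 genes. The gene had been singled out because it was among the genes that rose in these same arrays, so its levels and its difference are given as a description, without a test. The 2 ING3 arrays came from cells transduced with a lentivirus for FLAG-tagged full-length ING3, driven by a CMV/TO promoter with puromycin resistance, and the 2 control arrays from cells transduced with a GFP lentivirus. Both populations are of the same established human line, were stably selected and were collected near confluence in medium with serum and antibiotic. The labels speak of selected clones and do not give their number. The arrays of a group, called a and b after their titles, are technical duplicates per the series' design text, so an SD is that between 2 arrays and every p-value compares 2 cell populations rather than the condition across cultures.

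Tissue transglutaminase is a calcium-dependent enzyme that joins glutamine side chains to lysines or to small amines and so crosslinks proteins. It also binds and hydrolyses GTP, and the nucleotide holds it in a closed form without crosslinking activity. Outside the cell it crosslinks matrix proteins and serves as a co-receptor of integrins for fibronectin, and in pancreatic carcinoma it is known for its abundance in drug-resistant and invasive cells. ING3, the transduced gene, encodes a histone-reading subunit of NuA4/TIP60, an acetyltransferase complex.

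Signals are linear MAS5 values, which the authors scaled to a common level, and log2 differences are ING3 minus control on the log2(signal + 1) scale. A gene was tested if the mean of its brightest probe set was at least the median probe set's, near a signal of 64.6, and called if its limma p, adjusted by Benjamini-Hochberg over all 12190 tested genes, was under 0.05. "Rose" is used for called genes, of which there were 125, or 1.03% of those tested, and 58, or 0.476%, were called lower. At an unadjusted limma p under 0.05 stood 2161 genes, or 17.7% of those tested, against which the same count in a gene list is to be read. Without an intensity trend in the variance 0 genes were called (1686 at an unadjusted limma p under 0.05), so each call below depends on that trend. Nearly all calls were also lost when either control array was left out. Among those lost were ALDH1A1, EGR1, LOXL2, BMP1, KRT8, KRT19 and MUC1. For the other genes named below as risen, this loss was not followed gene by gene. The brightest ING3 probe set read 521 and 541 on the ING3 arrays, against 338 and 373 on the control arrays (log2 difference 0.58, SE 0.13, limma adjusted p = 0.071). The 3 other ING3 probe sets had log2 differences of -0.19, 0.018 and 0.50. The probe set at -0.19 had both ING3 arrays below both control arrays, and the groups overlapped on the one at 0.018. That at 0.50 lay under the filter with overlapping groups, at 57.6 and 23.9 on the ING3 arrays, against 27.1 and 25.1 on the control arrays.

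All 4 TGM2 probe sets were brighter on both ING3 arrays than on both control arrays. The brightest, 201042_at, read 3789 and 3828 on ING3 arrays a and b, against 2092 and 2359 on control arrays a and b. The ING3 arrays lay close together and the lower of them was 1.61 times the higher control array. The means were 3808 ± 27.4 in ING3 cells and 2225 ± 189 in control cells (SD, n = 2 each), a fold of 1.71 and a log2 difference of 0.78. Single ING3 arrays set against single control arrays gave folds between 1.61 and 1.83. In a bulk extract, more cells with the transcript and more transcript in each cell cannot be told apart.

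Both probe sets of the _x_at kind, whose probes can also bind other sequences, showed larger ratios at lower signals. The probe set 211003_x_at read 426 and 422 on the ING3 arrays, against 195 and 143 on the control arrays. Its means were 424 ± 2.90 in ING3 cells and 169 ± 37.0 in control cells (SD, n = 2 each), a fold of 2.53. Control array a was the higher of the controls here and the lower of them on 201042_at, so the control duplicates were not ordered alike on the probe sets. The probe set 211573_x_at read 415 and 391 on the ING3 arrays, against 151 and 159 on the control arrays. With means of 403 ± 17.0 in ING3 cells and 155 ± 5.21 in control cells (SD, n = 2 each), it had a fold of 2.59 and the widest separation of the 4, its lower ING3 array standing at 2.46 times its higher control array.

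The remaining probe set, 216183_at, read 21.6 and 26.6 on the ING3 arrays, against 10.3 and 12.3 on the control arrays. These signals lie under the filter, and 24.9% of all probe sets were dimmer on average over the 4 arrays. The fold was 2.04 with a pseudocount of 1. Its log2 difference of 1.03 became 0.56 with a pseudocount of 16, while that of 201042_at became 0.77.

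**Figure D1:**
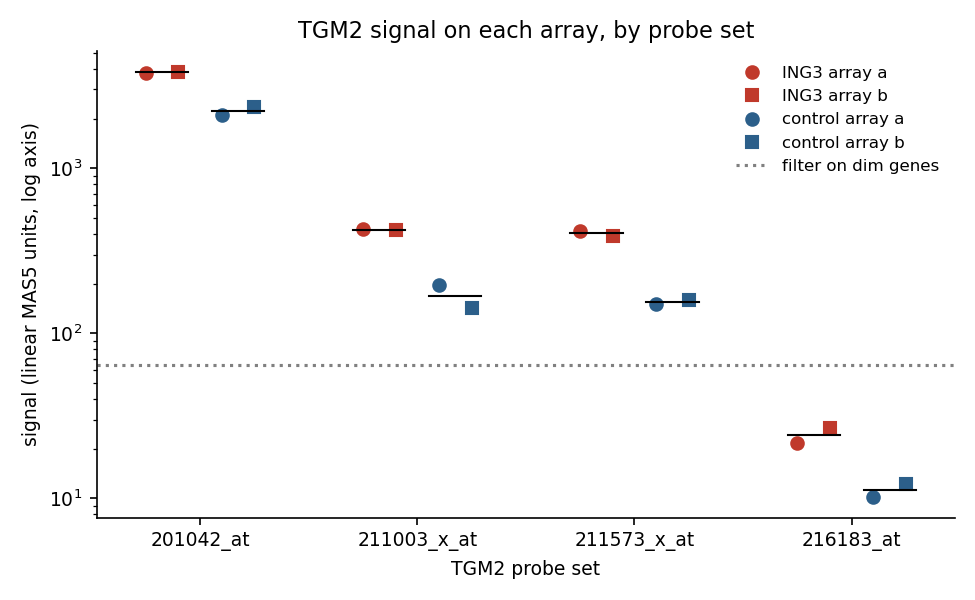
Signal of the 4 TGM2 probe sets on each array (linear MAS5 units on a log axis), with circles for array a, squares for array b, a black line for each group's mean and a dotted line at the filter on dim genes. On every probe set both ING3 arrays lie above both control arrays, at 3789 and 3828 against 2092 and 2359 for 201042_at.

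The dimmer probe sets therefore stood at a larger share of the brightest in the ING3 cells. The signal of 211003_x_at was 11.2% and 11.03% of that of 201042_at on the ING3 arrays, against 9.34% and 6.06% on the control arrays. For 211573_x_at it was 10.95% and 10.2% on the ING3 arrays, against 7.24% and 6.73% on the control arrays. The groups did not overlap in either share on these arrays. For 211003_x_at the control shares lay further apart than the higher of them lay from the ING3 shares. The shares come from the values on which TGM2 was chosen, and whether the probe sets changed by unequal factors was not tested. Which TGM2 transcripts each probe set reads was not analysed here.

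A separation of this kind was common on single probe sets and uncommon over a whole gene. Both ING3 arrays lay above both control arrays for 16.6% of the 54613 probe sets, for 19.4% of the 27305 probe sets past the filter and for 24.3% of the tested genes. Of the 1393 genes with 4 probe sets, 10 showed it on all of them (0.718%), and 2, TGM2 and ADD3, also reached 1.5-fold on each (0.144%). For TGM2 this rests on 216183_at, which lies under the filter and is not shown to differ from background. With a pseudocount of 16 its fold was 1.47, and ADD3 alone then reached 1.5-fold on each probe set (0.0718%). ADD3, which encodes the membrane skeleton protein adducin gamma, ranged from 1.55-fold to 2.50-fold over its probe sets. The other 8 genes were HKDC1, HLA-C, IPO7, IVNS1ABP, LAMA2, NT5E, PDIA6 and PRSS23, whose smallest folds lay between 1.10 and 1.40. Since TGM2 was chosen on this contrast, its place among them is a description.

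By level, TGM2 stood 2379th of 19775 genes when each gene was represented by its brightest probe set and averaged over the 4 arrays, so that 88.0% of genes were dimmer. Probe sets differ in how strongly they bind, so this rank orders signals and not transcript numbers. Within single arrays TGM2 stood 1825th and 1810th on the ING3 arrays, against 3203rd and 2921st on the control arrays. The ranks of the groups did not overlap. The genes next above it in mean signal were STK38L, a kinase of the NDR family, S100A2, a calcium-binding protein, and the RNA helicase DDX41, and those next below were PHIP, TMX4 and FNBP1L. Their log2 differences lay between -0.086 and 0.35, against 0.78 for TGM2. The mean levels of these 7 genes, back on the linear scale, ran from 2907 to 2912, closer than the TGM2 duplicates of either group, so their order is not resolved.

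By difference, TGM2 was 88th of the 12190 tested genes. This place moved to 219 without control array a, 154 without ING3 array b, 165 after quantile normalization and 159 after cyclic loess. It was 27 when a gene was the mean of its probe sets and 1307 of 19775 genes without the filter. Many genes above it were dim, where MAS5 values scatter widely. Among the 6095 tested genes at or above the median signal it was 9th, and of the 2379 genes at least as bright only UCA1, a long noncoding RNA, had a larger increase.

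**Figure D2:**
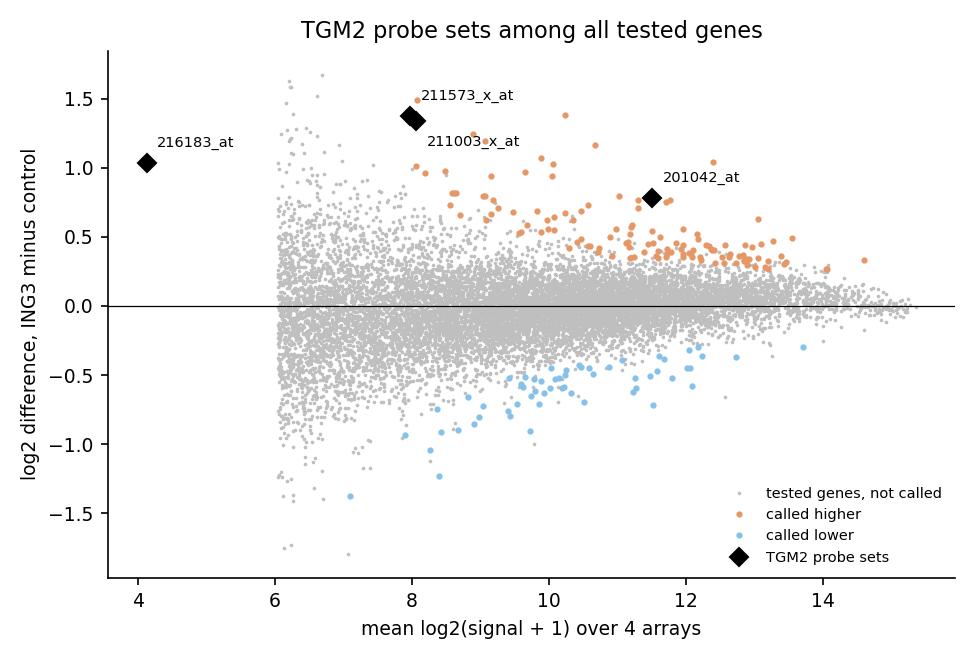
Log2 difference (ING3 minus control) against mean log2(signal + 1) over the 4 arrays for all 12190 tested genes in grey, with genes called higher in orange, genes called lower in blue and the 4 TGM2 probe sets as black diamonds. The probe set 201042_at, at 0.78, lies at the upper edge of the cloud for its brightness, and 216183_at lies left of the filter.

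TGM2 was the member of the transglutaminase family with signal clearly above the filter. The family holds enzymes of the skin, prostate and blood clot, and EPB42, a red cell membrane protein without enzyme activity. Of the 8 other members, 7 lay under the filter on average and were not tested. TGM5, an epidermal enzyme, passed it, with 127 and 77.1 on the ING3 arrays, against 72.6 and 34.5 on the control arrays. The duplicates of TGM5 differed by about as much as the groups did, and it was not called (log2 difference 0.97, SE 0.47, limma adjusted p = 0.32).

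TGM1, the keratinocyte enzyme, read 8.83 and 11.5 on the ING3 arrays, against 18.5 and 18.4 on the control arrays, all far under the filter. TGM3, an enzyme of hair and epidermis, read 38.9 and 42.8 on the ING3 arrays, against 41.1 and 11.3 on the control arrays. For TGM4, the prostate enzyme, the signals were 32.1 and 46.5 on the ING3 arrays, against 34.6 and 20.1 on the control arrays. The groups overlapped for TGM3 and TGM4.

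They overlapped as well for TGM6, a neuronal enzyme, with 32.3 and 14.5 on the ING3 arrays, against 24.5 and 30.8 on the control arrays. TGM7 did not exceed 5.85 on any array, F13A1, the A chain of coagulation factor XIII, ranged from 2.87 to 32.3, and EPB42 from 7.92 to 24.0. No detection calls were used here, so a signal of this size is not shown to differ from background.

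**Figure D3:**
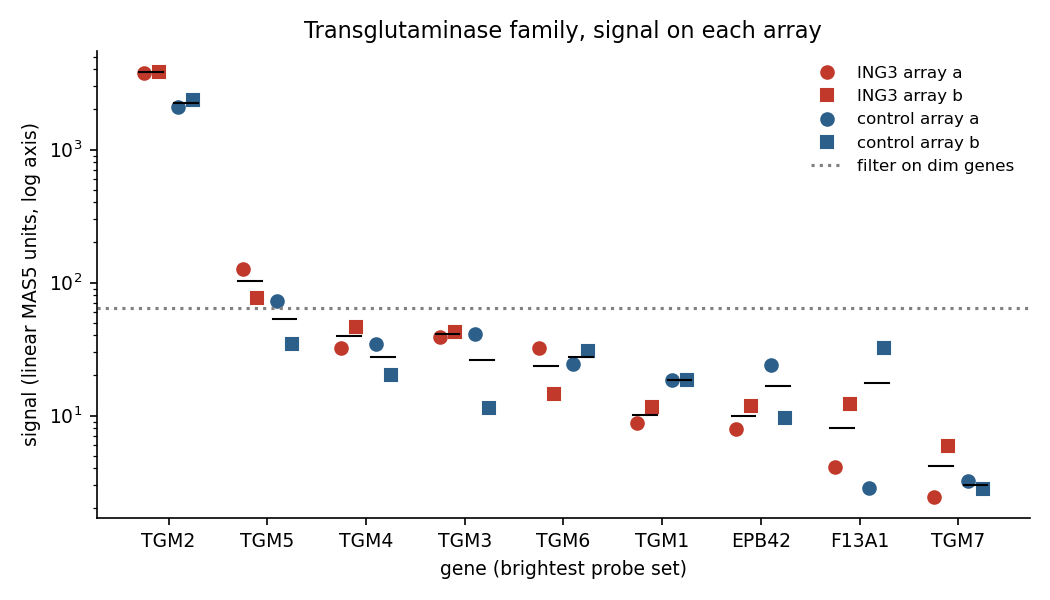
Signal of the brightest probe set of each transglutaminase family gene on each array (linear MAS5 units on a log axis), ordered by mean level, with circles for array a, squares for array b and black lines for group means. TGM2 is separated from the other members, of which only TGM5 passes the dotted line of the filter.

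At the cell surface TGM2 acts together with integrins, syndecan-4 and receptors of the LDL receptor family, and none of the 12 tested genes of these partners was called (3 at an unadjusted limma p under 0.05, where 17.7% of all tested genes stood). On average 5 of the 12 were higher and 7 lower in ING3 cells, and they had a median log2 difference of -0.058, against -0.0074 for all tested genes. ITGB1, the integrin chain to which TGM2 binds, read 21892 and 23362 on the ING3 arrays, against 22921 and 21053 on the control arrays. SDC4, the heparan sulfate proteoglycan syndecan-4, read 5848 and 5282 on the ING3 arrays, against 4799 and 4806 on the control arrays (log2 difference 0.21, SE 0.067, limma adjusted p = 0.15).

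The log2 differences of ITGAV, an integrin chain, and LRP6, a WNT co-receptor, were -0.17 and -0.074. ADGRG1, an adhesion receptor that binds TGM2 and is also called GPR56, had 1006 and 1168 on the ING3 arrays, against 794 and 768 on the control arrays (log2 difference 0.47, SE 0.10, limma adjusted p = 0.065). FN1, fibronectin itself, lay under the filter, with 90.2 and 55.6 on the ING3 arrays, against 16.9 and 43.9 on the control arrays. Both ING3 arrays were above both control arrays for these 2 genes, as for 24.3% of all tested genes, and neither counts as called.

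None of the 11 tested secreted and matrix proteins that TGM2 can crosslink was called (3 at an unadjusted limma p under 0.05, against 17.7% of all tested genes), and 13 more lay under the filter. Their median log2 difference was -0.10, and 4 were higher and 7 lower on average in ING3 cells. COL1A2, a chain of type I collagen, read 3749 and 3996 on the ING3 arrays, against 4648 and 4548 on the control arrays (log2 difference -0.25, SE 0.063, limma adjusted p = 0.091). The 2 further COL1A2 probe sets past the filter differed by -0.60 and -0.40 (log2), and the 1 further LAMB1 probe set by 0.52. LAMB1, a laminin chain, lay on the other side with 319 and 282 on the ING3 arrays, against 170.1 and 169 on the control arrays (log2 difference 0.82, SE 0.19, limma adjusted p = 0.069). S100A11, LAMC1 and COL3A1, the other bright members, had log2 differences of 0.012, 0.0060 and -0.036.

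Inside the cell TGM2 binds or modifies proteins of the cytoskeleton, of stress responses and of transcription. Of 26 tested genes of such substrates and partners 0 were called (4 at an unadjusted limma p under 0.05, against 17.7% of all tested genes), 13 were higher and 13 lower on average in ING3 cells, and the median log2 difference was 0.0084. The brightest were ANXA1, ACTB, HSP90AA1 and VIM, with log2 differences of -0.0033, 0.020, 0.070 and -0.065. Further probe sets past the filter differed by 0.21 (log2) for ANXA1 and -0.60 for VIM. Those of ACTB lay between -0.034 and -0.026 and those of HSP90AA1 between -0.095 and 0.15. TXN, thioredoxin, which can restore the activity of oxidised TGM2, read 18069 and 17997 on the ING3 arrays, against 15688 and 14722 on the control arrays (log2 difference 0.25, SE 0.056, limma adjusted p = 0.068). NFKBIA, the NF-kB inhibitor that TGM2 can crosslink, had a log2 difference of -0.17 (SE 0.066, limma adjusted p = 0.22).

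Retinoic acid is a classical inducer of TGM2, acting through retinoid receptors. Of 14 tested genes of the retinoid pathway 1 rose and 0 fell, where 1.03% of all tested genes rose and 0.476% were called lower. There were 7 higher and 7 lower means, and the median log2 difference was -0.021. ALDH1A1, a retinaldehyde dehydrogenase that makes retinoic acid, was the member that rose, with 10183 and 10779 on the ING3 arrays, against 7991 and 8766 on the control arrays (log2 difference 0.32, SE 0.065, limma adjusted p = 0.047). The groups did not overlap, but the difference was small and was also not called after quantile normalization, after cyclic loess or without ING3 array b. Its relative ALDH1A3 had a log2 difference of 0.0024 and the retinol dehydrogenase RDH11 one of -0.045. The receptors RXRA and RXRB had log2 differences of -0.24 (SE 0.11) and 0.11 (SE 0.11). The 1 further RXRA probe set past the filter differed by 0.26 (log2), in the other direction. CYP26A1, the retinoic acid hydroxylase that retinoic acid itself strongly induces, and the receptor RARB lay under the filter, CYP26A1 with 13.5 and 33.7 on the ING3 arrays, against 26.8 and 54.9 on the control arrays.

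Among the signals and factors reported to act on TGM2 transcription, 1 of 24 tested genes rose and 0 fell. Of all tested genes, 1.03% rose and 0.476% were called lower. The median log2 difference of the 24 genes was -0.012. EGR1, an immediate early zinc finger factor, rose 1.54-fold, with 9939 and 11130 on the ING3 arrays, against 6433 and 7217 on the control arrays (log2 difference 0.63, SE 0.076, limma adjusted p = 0.0079). The 2 further EGR1 probe sets past the filter differed by 0.25 and 0.41 (log2).

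The NF-kB subunits NFKB1, NFKB2, REL, RELA and RELB had log2 differences between -0.14 and 0.094. The hypoxia factor HIF1A, the cytokine signal transducers STAT3 and IL6ST and the TNF receptor TNFRSF1A had log2 differences of 0.12, 0.11, -0.21 and 0.063, and none of these was called. The 3 further STAT3 probe sets past the filter lay between -0.40 and 0.52 (log2), and the 1 further IL6ST probe set differed by 0.0033. TGFB1, the TGF-beta ligand, read 172 and 187 on the ING3 arrays, against 257 and 221 on the control arrays (log2 difference -0.41, SE 0.20, limma adjusted p = 0.32). IL1B, an inflammatory cytokine, read 176 and 177 on the ING3 arrays, against 295 and 315 on the control arrays (log2 difference -0.79, SE 0.18, limma adjusted p = 0.071). Neither cytokine overlapped between the groups, and both were lower in the ING3 cells without passing the test. Of the 24 tested genes of this list, 8 had both ING3 arrays above both control arrays and 4 had both below. Over all tested genes, 24.3% had both ING3 arrays above. The share of all tested genes with both below was not computed here, so the 4 have no background beside them.

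Of 10 tested genes for other enzymes that crosslink matrix or mature collagen, 2 rose and 0 fell. Of all tested genes, 1.03% rose and 0.476% were called lower. The median log2 difference of the 10 genes was 0.022. LOXL2, a lysyl oxidase that crosslinks collagen through another chemistry, rose 1.32-fold, with 5989 and 6230 on the ING3 arrays, against 4612 and 4632 on the control arrays (log2 difference 0.40, SE 0.059, limma adjusted p = 0.017). No other LOXL2 probe set passed the filter, and LOXL2 was not called with the mean of all probe sets of a gene. BMP1, a procollagen C-proteinase, rose 1.45-fold, with 1108 and 1170 on the ING3 arrays, against 761 and 816 on the control arrays (log2 difference 0.53, SE 0.095, limma adjusted p = 0.032). The 2 further BMP1 probe sets past the filter differed by -0.092 and -0.0051 (log2), so the BMP1 call rests on 1 of 3 probe sets, and it was also lost without ING3 array b. P4HB, P4HA1, SERPINH1 and PLOD3, which serve collagen hydroxylation and folding, had log2 differences of 0.032, 0.0038, 0.12 and -0.079.

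**Figure D4:**
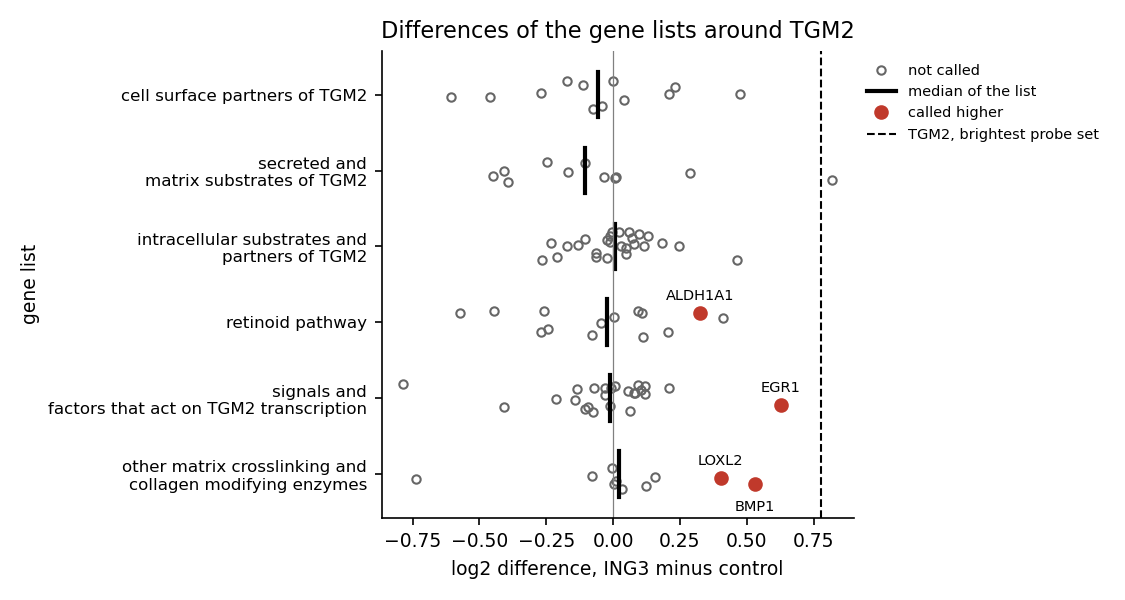
Log2 difference (ING3 minus control) of each tested member of 6 gene lists, with open circles for genes not called, red circles for genes called higher, black bars for list medians and a dashed line at TGM2's 0.78. The medians lie between -0.10 and 0.022, and the 4 called genes are ALDH1A1, EGR1, LOXL2 and BMP1.

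None of the tested genes nearest to TGM2 on chromosome 20 was called. The 3 nearest tested genes on one side, RPRD1B, TTI1 and VSTM2L, had log2 differences of -0.0015 (SE 0.10), 0.055 (SE 0.12) and -0.26 (SE 0.18). On the other side SNHG17, RALGAPB and ADIG had values of -0.033 (SE 0.074), -0.11 (SE 0.10) and -0.56 (SE 0.32). For these 6 genes the limma adjusted p lay between 0.39 and 0.996, and 0 had an unadjusted limma p under 0.05. Of all tested genes 1.5% were called in either direction and 17.7% had an unadjusted limma p under 0.05. Counts of 0 among 6 genes therefore say little about this stretch of the chromosome. RPRD1B, which encodes a regulator of RNA polymerase II, was the nearest in gene order on its side, with 1085 and 1238 on the ING3 arrays, against 1101 and 1223 on the control arrays.

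Likeness of profile was measured as the Euclidean distance over the 4 arrays between log2 values centred on each gene's own mean, among 5703 bright genes. The nearest gene was KLF2, a zinc finger transcription factor, at a distance of 0.090, with 3427 and 3171 on the ING3 arrays, against 1830 and 2045 on the control arrays. ADD3 followed at 0.12, with 1720 and 1876 on the ING3 arrays, against 1043 and 1190 on the control arrays. ITGB4, the integrin chain of hemidesmosomes, stood at 0.13, although 1 of the 2 further ITGB4 probe sets past the filter differed by -0.26 (log2).

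The next 7 were LINC00525, a noncoding RNA, TAGLN2, an actin-binding protein, FSTL1, a secreted glycoprotein, EGR1, CCN1, a matricellular protein that binds integrins, RUNX2, a transcription factor of bone, and ERCC6, a DNA repair ATPase, at distances up to 0.20. The median distance over all 5703 genes was 0.78. All 10 are among the 125 genes that rose, as the choice by likeness to a gene that differs between the groups largely fixes. All of them but FSTL1 had, like TGM2, a higher signal on control array b than on control array a. With 4 arrays in 2 populations, the measure describes these arrays only.

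**Figure D5:**
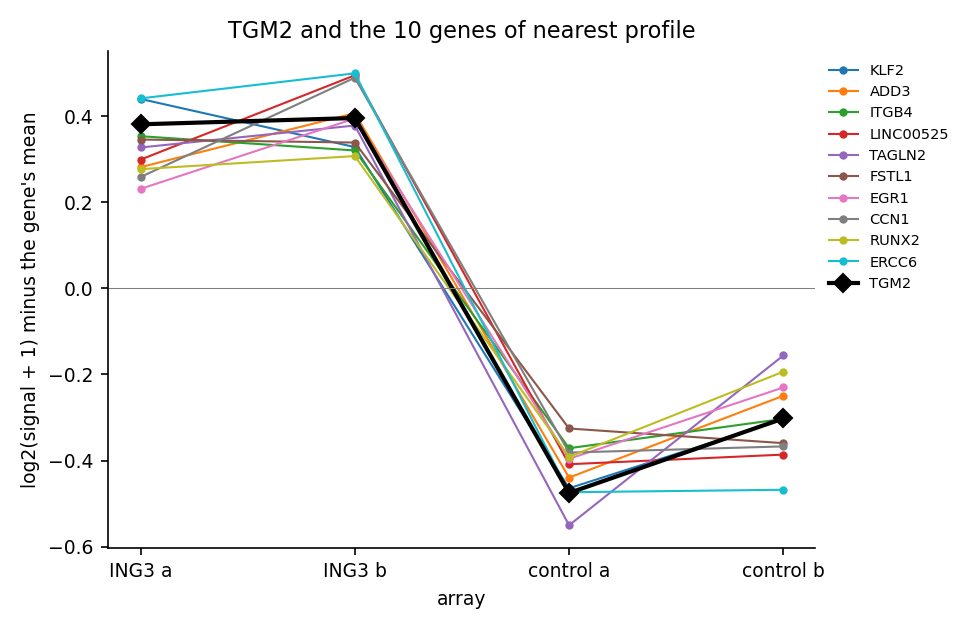
Log2(signal + 1) minus the gene's own mean on each of the 4 arrays, for TGM2 (black diamonds) and the 10 genes of nearest profile (coloured circles), with lines that only join the points of a gene. All 11 genes lie above 0 on both ING3 arrays and below 0 on both control arrays.

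The labelled cell type was compared with its markers. The keratins KRT8, KRT18 and KRT19 were bright on all arrays. KRT7 was dim, with 80.6 and 77.0 on the ING3 arrays, against 110.7 and 70.3 on the control arrays (log2 difference -0.16, not called). EPCAM and CDH1, 2 defining genes of epithelial junctions, lay under the filter at 37.9 or less. Their log2 differences were -0.61 and -0.34, with overlapping groups. KRT19, KRT8 and MUC1 rose, 3 of the 5 tested epithelial markers, where 1.03% of all tested genes rose. Their log2 differences were 0.52, 0.32 and 0.42 (limma adjusted p = 0.0078, 0.033 and 0.035). KRT8 and KRT18 were each read from 1 probe set, of the _x_at kind. Without such probe sets, 2 of 3 tested epithelial markers were called. KRT8 and MUC1 were not called after quantile normalization, after cyclic loess or without the filter, and MUC1 was also not called without ING3 array b. None of these 3 genes was called with the mean of all probe sets of a gene, where 26 genes were called higher. KRT8 has 1 probe set, so its own values were unchanged there. The 2 further MUC1 probe sets past the filter differed by 0.31 and 0.52 (log2). KRT19 read 5565 and 5374 on the ING3 arrays, against 3704 and 3929 on the control arrays.

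None of the tested markers of other cell types was called, of which 5 were for fibroblasts (2 at an unadjusted limma p under 0.05), 2 for endothelium (0) and 2 for leukocytes (0), against 17.7% of all tested genes. The summed signal of the 9 fibroblast markers was 6084 and 6501 on the ING3 arrays, against 7121 and 6977 on the control arrays. It came mostly from COL1A2 and COL3A1. Under the filter, FAP did not exceed 11.9 and PDGFRB did not exceed 53.8, and both overlapped between the groups. LUM and PDGFRA, also under it, were higher on both ING3 arrays, as were 16.6% of all 54613 probe sets. LUM read 48.6 and 28.5 on the ING3 arrays, against 7.30 and 5.10 on the control arrays. PDGFRA read 38.2 and 52.2 on the ING3 arrays, against 23.9 and 14.0 on the control arrays. The summed signal of the 6 endothelial markers was 501 and 417 on the ING3 arrays, against 523 and 438 on the control arrays. Among them CLDN5, under the filter, was higher on both ING3 arrays and the others overlapped. The summed signal of the 6 leukocyte markers was 316 and 278 on the ING3 arrays, against 324 and 155 on the control arrays. CD163, PTPRC and ITGAM were higher on both ING3 arrays, and CD14, CSF1R and CD3E overlapped. CD163, under the filter, read 22.9 and 33.3 on the ING3 arrays, against 2.81 and 4.76 on the control arrays. The 1 further ITGAM probe set past the filter differed by -0.25 (log2). The part of these cell types in the TGM2 difference was not tested. RNA integrity was read from the ACTB control probe sets, whose 3' over 5' signal was 2.05 and 2.03 on the ING3 arrays, against 2.58 and 1.80 on the control arrays. The ING3 arrays lay between the control arrays in this quotient. For the GAPDH control probe sets it was 0.903 and 0.923 on the ING3 arrays, against 0.934 and 0.905 on the control arrays, so that ING3 array a lay just below both control arrays. The ING3 range was narrower than the control range in both quotients, and the part of RNA integrity in the TGM2 difference was not tested.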

How the data were processed

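Gene expression was measured in 4 samples of MIA PaCa-2 cells on 1-colour Affymetrix HG-U133 Plus 2.0 arrays, 2 for ING3 and 2 for control cells by their titles. The deposited table gives a linear signal intensity for each of 54675 probe sets. Per the submitters' processing notes, the software was Affymetrix Expression Console with the MAS5 method. After trimming 2% at either end, the deposited intensities averaged 499.9 on each array. MAS5 subtracts mismatch signals, so dim probe sets scatter, and no detection calls were used here.

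Tests left out the 62 control probe sets. The platform annotation of 2016 gave 1 symbol for 41097 probe sets, several for 1801 and none used here for 11777. A gene was read from its brightest probe set by mean log2(signal + 1). Fold changes on that scale understate changes of dim genes. The test was the two-sided moderated test of limma 3.58.1 under R 4.3.3, using lmFit and an eBayes variance trend on intensity, with 2 residual and 7.35 borrowed degrees of freedom, no covariates and Benjamini-Hochberg adjustment. The fit was tested on simulated data. Arrays have no read depth, and their number limits the precision.

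TGM2, the 11 gene lists and the tests were chosen with earlier results of these data known. Named genes were the transglutaminase family, the called and up to 4 brightest members of each list, the 3 tested genes on either side of TGM2 in the RefSeq gene order, the 10 nearest profiles and the 3 genes on either side in level. Other genes named were chosen after their values were seen. List genes without a probe set of 1 symbol were not analysed here. The alternatives changed the pseudocount, normalization, filter, variance model, threshold, probe sets and arrays, and added the array letter as a block.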

Additional observations from a re-analysis of the deposited data

How the results depend on the processing

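The TGM2 difference was positive on all 4 probe sets with the other pseudocount, after either normalization and without any 1 array. For 201042_at the log2 difference lay between 0.69 and 0.86 when 1 array was left out. The mean of all 4 TGM2 probe sets, which includes 216183_at under the filter, had a log2 difference of 1.13 and ranked 27th. By 201042_at, the rank of TGM2 by difference lay between 101 and 219 when 1 array was left out. It was 165 after quantile normalization, 159 after cyclic loess and 1307 of 19775 without a filter, which adds dim genes. The rank of TGM2 by level lay between 2131 and 2606 when 1 array was left out. When 1 array was left out, 2 to 189 genes were called higher and 0 to 116 lower, with 2 and 0 without either control array. Quantile normalization called 83 higher and 36 lower, cyclic loess 90 and 36, no filter 42 and 12, the mean of all probe sets of a gene 26 and 11, and a test against a 1.2-fold change 9 and 0. With no intensity trend 0 and 0 genes were called. The replicate block, which takes the letters a and b as pairs, called 263 higher and 179 lower, including all 183 genes called without it. The letters are not stated to mark a shared batch, and deviations of same-letter arrays correlated at 0.029 over genes, so they were not treated as pairs. EGR1 was not called in 4 of 13 alternatives, LOXL2 and KRT19 in 5 of 13, BMP1 in 6 of 12, KRT8 in 8 of 12, and ALDH1A1 and MUC1 in 9 of 13. The cause of these shifts was not tested. Signals under the filter, with no detection calls, set no order among the dim family members.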
